A study of Schizosaccharomyces pombe with 4 samples.

Results

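The Sty1-Atf1 stress pathway of the fission yeast Schizosaccharomyces pombe was examined early in meiosis, in diploid cells with and without the histone variant H2A.Z. Its 10 genes were taken by name: the kinase genes wis1 and sty1, the transcription factor genes atf1 and pcr1, and the stress targets ctt1, gpx1, gpd1, tps1, ntp1 and hsp9. Each of the 10 matched 1 probe set by its current symbol, out of 4999 probe sets on the array.

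The study compared h+/h- diploids that lacked pht1, the gene of H2A.Z, with wild-type diploids, at 1.5 h and 3 h of meiosis brought on by nitrogen withdrawal. All cells carried ade6-210/216 together with heterozygous his5-303/+ and leu1-32/+. The deletion strain was also ura4-D18/ura4-D18, and both of its pht1 copies were replaced by the marker ura4+ (pht1D::ura4+/pht1D::ura4+). Polyadenylated RNA of each of the 4 combinations was measured on 1 Affymetrix array, and it is not stated if 1 culture gave both times of a genotype. No group had a replicate, so a difference between 2 arrays has no replicate check and carries no p-value.

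Wis1 is the MAP kinase kinase that activates the MAP kinase Sty1 under osmotic, oxidative, heat and starvation stress. Sty1 phosphorylates Atf1, a bZIP transcription factor that pairs with Pcr1 and switches on a common set of stress genes. The pathway is also needed for sexual differentiation after nitrogen starvation, and the Atf1-Pcr1 pair binds a well-studied meiotic recombination hotspot.

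Values are RMA summaries on the log2 scale, relative to the other transcripts of the same array. A difference is a log2 difference between 2 arrays. It was counted as called when it reached 1.5-fold and the higher array lay above a floor, the 25th percentile of that array. All 10 stress pathway genes lay above the floor on all 4 arrays. The spread of a 2-array difference, taken from how far the genotype differences at the 2 times departed from each other over 3851 probe sets, was 0.13 log2 units as a scaled median absolute deviation and 0.21 as an SD. Both hold array noise and true change of the genotype difference with time.

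The pht1 probe set read 7.37 in the deletion against 12.70 in wild type at 1.5 h, and 7.36 in the deletion against 12.86 in wild type at 3 h. The ura4 probe set was 12.00 in the deletion against 12.70 in wild type at 1.5 h, and 11.89 in the deletion against 12.38 in wild type at 3 h. It reads the marker in the deletion strain, whereas the wild-type strain lists no ura4 marker or ura4 allele. Markers of other cell states also moved with genotype. The 15 measured pheromone and mating genes averaged 13.37 in the deletion and 12.05 in wild type at 1.5 h, and 13.50 in the deletion and 13.17 in wild type at 3 h, with 15 and then 11 of them higher in the deletion. The 20 genes of middle meiosis and sporulation averaged 10.92 in the deletion and 8.59 in wild type at 1.5 h, and 12.00 in the deletion and 9.77 in wild type at 3 h, with 20 and then 19 of them higher. Only 14 of the 20 lay above the floor at 1.5 h and 18 at 3 h. Among all probe sets above the floor, 45.1% and 47.8% were higher at those times. The lists were chosen with earlier results of these data known, so these counts are no independent support. The 13 measured genes of dividing vegetative cells averaged 10.64 in the deletion and 10.96 in wild type at 1.5 h, and 10.07 in the deletion and 10.48 in wild type at 3 h. In such bulk RNA, more cells in a state and more RNA per cell cannot be told apart, and the part of these states in the results below was not tested.

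The stress pathway genes were mostly a little higher without H2A.Z, and a 1.5-fold difference was reached by a different single gene at each time. At 1.5 h this gene was ctt1, the catalase gene, at 0.86 log2 units (1.81-fold). At 3 h it was atf1, at 0.78 (1.72-fold). The deletion exceeded wild type by 1.5-fold or more in 4.69% of all probe sets that passed the floor at 1.5 h and in 3.09% at 3 h, so 1 gene in 10 at each time is too few to set these genes apart from the array. No gene of the 10 was at least 1.5-fold lower, against 5.31% and 3.96% of all probe sets at 1.5 h and 3 h, and none reached 2-fold, a size at which 1.95% and 1.8% of all probe sets were higher.

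The direction was shared more widely than the size. At 1.5 h, 9 of the 10 genes were higher by some amount in the deletion, with a median of 0.13, whereas the median of all probe sets was -0.026 and 45.1% of them were higher. At 3 h all 10 were higher, with a median of 0.15 against -0.0087 for all probe sets, of which 47.8% were higher. Of 3782 probe sets above the floor at both times, 33.2% were higher at both, and 9 of the 10 stress genes were. The 10 genes, too, were chosen with earlier results of these data known, so these counts are no independent support.

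**Figure D1:**
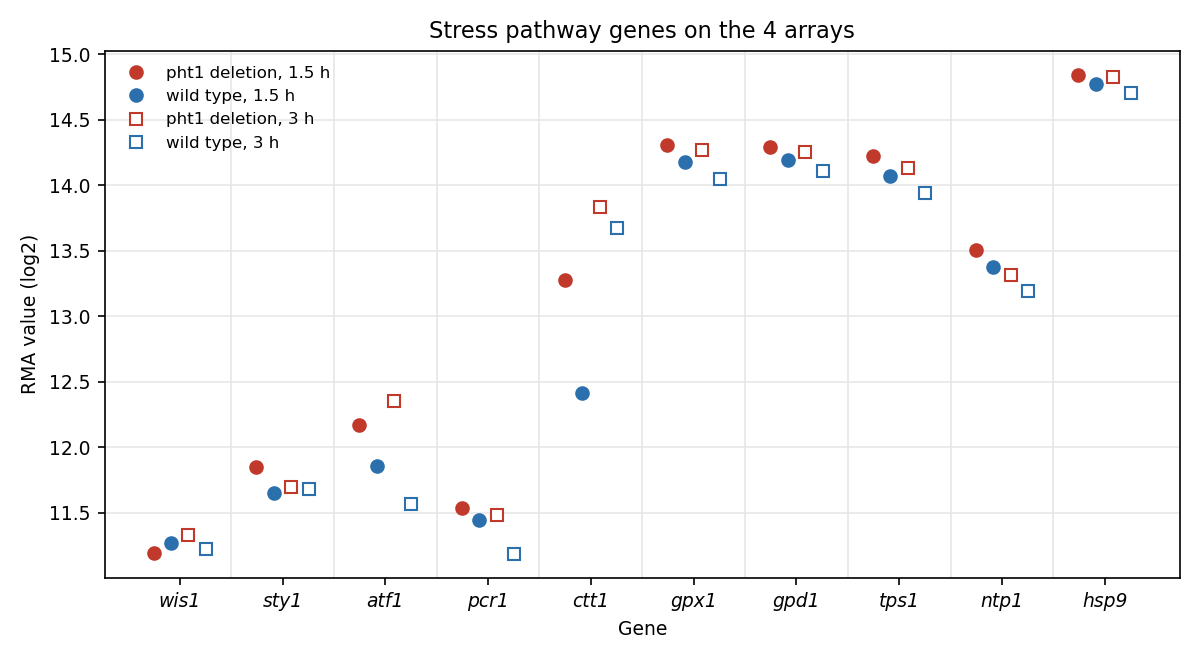
RMA values (vertical axis, log2) of the 10 stress pathway genes on the 4 arrays, 1 point per array: red for the pht1 deletion, blue for wild type, filled circles for 1.5 h and open squares for 3 h. The ctt1 point of wild type at 1.5 h (12.41) lies far below its other points, and for atf1 both deletion points lie above both wild-type points.

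Among the kinases, the differences were small and without a common direction over time. The wis1 probe set read 11.19 in the deletion and 11.27 in wild type at 1.5 h, and 11.33 in the deletion and 11.23 in wild type at 3 h. Its differences of -0.080 and 0.11 were within the 0.13 spread, and the 2 genotypes overlapped. The sty1 probe set read 11.85 in the deletion and 11.65 in wild type at 1.5 h, then 11.70 in the deletion and 11.68 in wild type at 3 h. The 1.5 h deletion array stood alone at the top, with a difference of 0.20, and the other 3 arrays lay close together.

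The transcription factor gene atf1 had the largest genotype difference of the 10 when both times were averaged. Its probe set read 12.17 in the deletion and 11.86 in wild type at 1.5 h, and 12.35 in the deletion and 11.57 in wild type at 3 h. Both deletion arrays lay above both wild-type arrays. The difference was 0.31 at 1.5 h and 0.78 at 3 h, at the 88.1 and 97.7 percentiles of all probe sets. For 3 h minus 1.5 h, atf1 was at 0.18 in the deletion and at -0.29 in wild type. The genes of middle meiosis and sporulation also differed, and more at 1.5 h than at 3 h. Their median was 3.18 over 14 above the floor at 1.5 h and 1.83 over 18 at 3 h. Their part in the atf1 values was not tested. Its partner gene pcr1 read 11.54 in the deletion and 11.44 in wild type at 1.5 h, and 11.49 in the deletion and 11.19 in wild type at 3 h. Only the wild-type array at 3 h stood clearly apart, at the low end, so that the difference was 0.094 at 1.5 h and 0.30 at 3 h.

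The catalase gene ctt1, whose enzyme breaks down hydrogen peroxide, was the one stress target with a large range over the arrays. Its probe set read 13.27 in the deletion and 12.41 in wild type at 1.5 h, and 13.83 in the deletion and 13.67 in wild type at 3 h. The wild-type array at 1.5 h was lowest by 0.86 log2 units, and at 3 h the genotypes lay 0.16 apart. The ctt1 difference thus lay at the 97.3 percentile of all probe sets at 1.5 h and at the 79.2 percentile at 3 h. Mating genes also differed more at the earlier time, with a median genotype difference of 0.99 at 1.5 h and 0.28 at 3 h over 15 genes, and their part in the ctt1 values was not tested.

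The other 5 targets read high on every array and differed little, but always in the same direction. They are gpx1, which encodes a glutathione peroxidase, gpd1 for glycerol-3-phosphate dehydrogenase in the synthesis of the osmolyte glycerol, tps1 for trehalose-6-phosphate synthase, ntp1 for the neutral trehalase that breaks trehalose down, and hsp9, a small heat shock protein gene. Over these 5 genes and both times, the deletion exceeded wild type by between 0.069 and 0.22 log2 units in 10 of 10 comparisons. A 2-array difference in the brightest 25% of probe sets had a spread of 0.095, and 1 of the 10 differences was smaller than that. How many other bright probe sets exceed this spread was not counted. The 10 differences lay between the 66 and 85 percentiles of all probe sets. They come from the same 4 arrays and are not replicates of each other.

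The gpx1 probe set read 14.31 in the deletion and 14.18 in wild type at 1.5 h, and 14.27 in the deletion and 14.05 in wild type at 3 h. Both deletion arrays lay above both wild-type arrays, and the differences of 0.13 and 0.22 put gpx1 at the 74.2 and 85.2 percentiles of all probe sets. The tps1 probe set read 14.22 in the deletion and 14.07 in wild type at 1.5 h, and 14.13 in the deletion and 13.94 in wild type at 3 h. Here too the genotypes did not overlap, with differences of 0.15 and 0.19.

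The gpd1 probe set read 14.29 in the deletion and 14.19 in wild type at 1.5 h, then 14.25 in the deletion and 14.11 in wild type at 3 h. The genotypes did not overlap, at differences of 0.10 and 0.14. For ntp1 they did overlap. It read 13.51 in the deletion and 13.38 in wild type at 1.5 h, and 13.31 in the deletion and 13.19 in wild type at 3 h, so that time moved it more (-0.20 in the deletion and -0.18 in wild type) than genotype did (0.13 and 0.12).

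The hsp9 probe set read 14.84 in the deletion and 14.77 in wild type at 1.5 h, and 14.83 in the deletion and 14.70 in wild type at 3 h. It was the highest of all 4999 probe sets on the deletion array at 1.5 h and lay at most 0.19 log2 units below the highest value on the other arrays. Whether the hsp9 signal was near the upper limit of the scanner could not be read from RMA values, and such a limit was not tested. The genotypes did not overlap, at differences of 0.069 and 0.12.

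**Figure D2:**
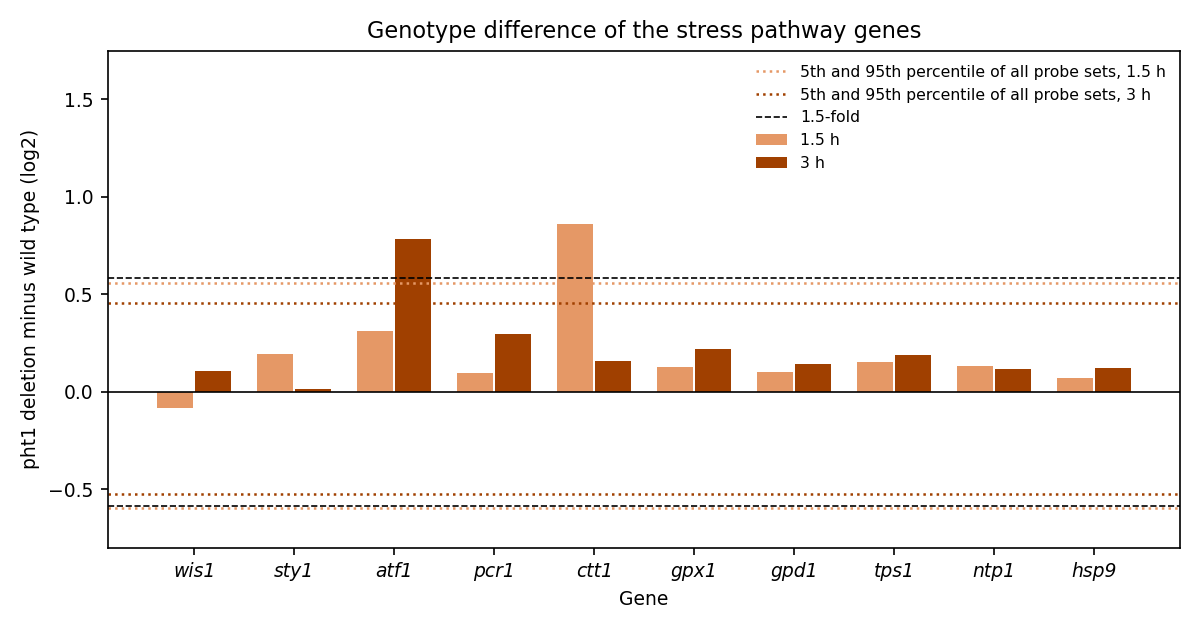
Genotype difference (vertical axis, pht1 deletion minus wild type, log2) of each stress pathway gene at 1.5 h (light bars) and 3 h (dark bars), each from 1 array minus 1 array. Dashed lines mark 1.5-fold and dotted lines the 5th and 95th percentiles of all probe sets above the floor. Only ctt1 at 1.5 h (0.86) and atf1 at 3 h (0.78) pass the dashed line, and wis1 at 1.5 h (-0.080) is the one bar below 0.

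The order of the 4 arrays was alike for many of the genes. In 5 of them (pcr1, hsp9, gpx1, gpd1 and tps1) the deletion at 1.5 h was highest, followed by the deletion at 3 h, wild type at 1.5 h and wild type at 3 h. That order was found in 5.22% of 3851 probe sets. It was named because it held the most of the 10 genes, so its share is no independent support. Both deletion arrays lay above both wild-type arrays in these 5 genes, in sty1 and in atf1. The possible orders of this kind were found in 5.22%, 4.67%, 2.8% and 8.34% of the probe sets. The wild-type array at 3 h was the lowest for 7 of the 10 genes, against 20.7% of the probe sets, and the deletion array at 1.5 h was the highest for 7 of them, against 20.6%. These shares describe 4 arrays and not repeated cultures.

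Averaged over both times, no stress pathway gene passed the test between genotypes. The fit was limma's linear model of genotype plus time on the 3851 probe sets that passed the floor on 2 or more arrays, with Benjamini-Hochberg adjustment over all of them at 0.05. It called 1.79% of probe sets higher and 3.04% lower in the deletion, and 0 of the 10 stress genes, of which 6 had an unadjusted p under 0.05, as did 28.3% of all probe sets. All 10 estimates were above 0, as were 46.4% of all estimates. Each gene has 1 residual degree of freedom in it, and the p-values reflect the scatter among 4 arrays rather than among cultures.

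The estimate was 0.55 ± 0.14 for atf1 (SE, limma adjusted p = 0.103, 95% interval 0.17 to 0.93). For ctt1 it was 0.51 ± 0.18 (SE, limma adjusted p = 0.17, 95% interval 0.012 to 1.01), where the fit counts the narrowing of the gap with time as residual. The smallest adjusted p by limma was 0.0853, for tps1, at an estimate of 0.17 ± 0.037 (SE). The gpx1 estimate was 0.17 ± 0.041 (SE, limma adjusted p = 0.0908) and the hsp9 estimate 0.097 ± 0.027 (SE, limma adjusted p = 0.119). For the kinases the 95% limma intervals ran from -0.24 to 0.26 for wis1 and from -0.14 to 0.35 for sty1, so differences of up to about those sizes remain possible. The pht1 probe set itself was called lower (limma adjusted p = 0.00182). Its estimate of -5.41 is a bound on the size of the loss, since the deletion arrays read near their lowest values of 7.27.

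Around the core genes, the other parts of the pathway did not move as 1 block. The upstream list held the genes of the histidine kinases Mak1, Mak2 and Mak3 and the phosphotransfer protein Mpr1. It also held those of the response regulator Mcs4 and the MAP kinase kinase kinases Wis4 and Win1. That each of them acts through Wis1 was not tested. Of the 5 of these genes above the floor, 4 were lower by some amount in the deletion at both times, with medians of -0.38 and -0.28. The deletion was higher in 45.1% and 47.8% of all probe sets at 1.5 h and 3 h. The mak2 probe set read 10.64 in the deletion and 11.37 in wild type at 1.5 h, and 10.03 in the deletion and 10.77 in wild type at 3 h. It fell by 0.74 averaged over both times (limma adjusted p = 0.0344), the 1 call of 5, while 3.04% of all probe sets tested were called lower. The highest of the list was mak1, at 0.20 and 0.016.

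Phosphatases, downstream kinases and RNA-binding partners of Sty1 and Atf1 had a median of -0.030 at 1.5 h (12 genes) and of -0.0094 at 3 h (11 genes), and 0 of them reached 1.5-fold. The highest were the genes of both tyrosine phosphatases that inactivate Sty1. The pyp1 probe set read 12.27 in the deletion and 11.76 in wild type at 1.5 h, and 12.02 in the deletion and 11.62 in wild type at 3 h. The pyp2 probe set, whose gene is itself a target of Atf1, read 12.32 in the deletion and 11.86 in wild type at 1.5 h, and 12.47 in the deletion and 11.90 in wild type at 3 h. Their additive estimates missed the threshold, with limma adjusted p = 0.0535 for pyp2 and 0.0657 for pyp1. Over the other settings these p by limma ranged from 0.037 to 0.0702 for pyp2 and from 0.0495 to 0.0797 for pyp1. The lowest were cip1, a partner of the RNA-binding protein Csx1, at -0.22 at 1.5 h and ptc4, a phosphatase gene, at -0.11 at 3 h.

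Other stress transcription factor genes had medians of -0.0098 at 1.5 h and -0.013 at 3 h over 6 genes, with 0 called by limma and 1 at an unadjusted p under 0.05. The oxidative stress factor gene pap1 was the lowest at both times, at -0.27 and -0.26, while prr1 (0.24) was the highest at 1.5 h and sep1 (0.35) at 3 h. The genes of the related bZIP proteins Atf21 and Atf31 lay below the floor. The atf21 probe set read 8.23 in the deletion and 7.51 in wild type at 1.5 h, and 9.28 in the deletion and 7.62 in wild type at 3 h. Its wild-type values were under 8.37, which is 1 log2 unit above the deleted pht1, so that its difference of 1.66 at 3 h is a lower bound.

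Of 13 antioxidant genes above the floor, obr1 and gst2 were called lower in the deletion by limma and 0 were called higher. Among all probe sets tested, 3.04% were called lower and 1.79% higher. By any amount, 4 of the 13 were higher at 1.5 h, with a median of -0.16, and 5 of the 13 at 3 h, with a median of -0.064. Both counts are lower shares than the 45.1% and 47.8% of all probe sets that were higher, though 13 genes are few. The obr1 probe set, whose gene is known as a target of Pap1, read 13.92 in the deletion and 14.54 in wild type at 1.5 h, and 13.85 in the deletion and 14.56 in wild type at 3 h, and it fell by 0.66 (limma adjusted p = 0.0175). The glutathione S-transferase gene gst2 fell by 0.50 (limma adjusted p = 0.0241).

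The list of glycerol, trehalose and carbon stress genes also held other genes, such as the metallothionein gene zym1. The list was chosen with earlier results of these data known, so its counts are no independent support. Its medians were 0.12 at 1.5 h and 0.21 at 3 h over 10 genes, 8 of them higher at each time. Of its glycerol and trehalose genes, gpd2, tpp1, dak1 and gut2 lay between -0.052 and 0.12 at both times. For dak2 the differences were 0.35 and 0.33. By any amount, 45.1% and 47.8% of all probe sets were higher at 1.5 h and 3 h. The limma fit called 4 of the 10 genes higher and 0 lower, against 1.79% and 3.04% of all probe sets tested. These were zym1, a metallothionein gene, at 1.42 (adjusted p = 0.0383), ght3, a sugar transporter family gene, at 1.14 (adjusted p = 0.0463), the gluconeogenic gene fbp1, a known Atf1-Pcr1 target, at 0.54 (adjusted p = 0.0477), and dak2, a dihydroxyacetone kinase gene, at 0.34 (adjusted p = 0.0275). The fbp1 probe set read 11.77 in the deletion and 11.27 in wild type at 1.5 h, and 12.90 in the deletion and 12.32 in wild type at 3 h. Of the 7 genes called in these lists, only obr1 was called under every other setting run. The highest adjusted p by limma over those settings was 0.0825 for zym1, 0.0655 for ght3, 0.0641 for fbp1, 0.0892 for dak2, 0.0581 for gst2 and 0.0502 for mak2.

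Heat shock proteins and chaperones, most of them also high on the arrays, had medians of 0.069 at 1.5 h and -0.048 at 3 h over 13 genes. At 1.5 h, 12 of the 13 were higher in the deletion and at 3 h 12 of the 13 were lower, by small amounts. Among all probe sets, 45.1% and 47.8% were higher at those times. The largest at 1.5 h was mas5, a co-chaperone gene, at 0.34, and the lowest at 3 h was wos2 at -0.10. The limma fit called 0 of the 13, with 0 at an unadjusted p under 0.05. The 6 stress targets among the Sty1-Atf1 genes were above 0 at both times, so the direction differed at 3 h but not at 1.5 h.

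**Figure D3:**
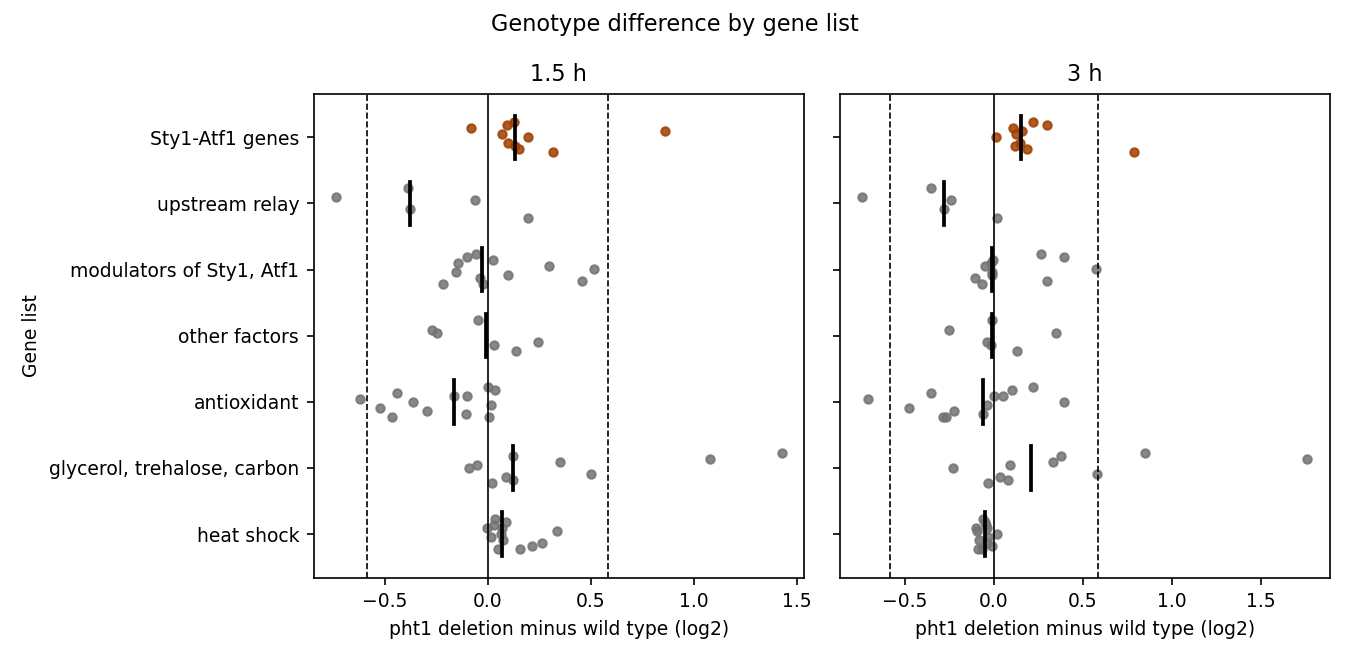
Genotype difference (horizontal axis, pht1 deletion minus wild type, log2) of single genes above the floor at 1.5 h (left) and 3 h (right), grouped by list (vertical axis). Each point is 1 gene, black bars are list medians and dashed lines mark 1.5-fold. The Sty1-Atf1 genes have medians of 0.13 and 0.15, the upstream genes -0.38 and -0.28, and the heat shock genes 0.069 and -0.048.

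Over time, ctt1 was the one stress pathway gene with a large difference between 3 h and 1.5 h. In wild type it read 13.67 at 3 h and 12.41 at 1.5 h, a difference of 1.26 (2.39-fold), and it was the 1 gene of the 10 past 1.5-fold higher at 3 h, against 4.46% of all probe sets. In the deletion it read 13.83 at 3 h and 13.27 at 1.5 h, a difference of 0.56 that stayed just under 1.5-fold, where 3.52% of probe sets passed. None of the 10 was 1.5-fold lower at 3 h in the deletion or in wild type, against 2.59% and 3.66% of all probe sets. The wild-type array at 1.5 h enters both this time difference and the genotype difference at 1.5 h. In the additive fit, the time estimate of ctt1 was 0.91 ± 0.18 (SE, limma adjusted p = 0.0951), and 0 of the 10 genes were called for time by limma, with 3 at an unadjusted p under 0.05. Of all probe sets, 0.805% were called higher and 0.805% lower at 3 h, and 24.2% had an unadjusted p under 0.05.

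The remaining genes were mostly a little lower at 3 h than at 1.5 h. The median of all 10 was -0.037 in the deletion and -0.10 in wild type, against -0.0087 and -0.024 for all probe sets, of which 48.2% and 44.7% were higher at 3 h. In wild type 8 of the 10 were lower at 3 h, from -0.046 for wis1 to -0.29 for atf1. In the deletion 7 of the 10 were lower, from -0.015 for hsp9 to -0.20 for ntp1, while atf1 (0.18) and wis1 (0.14) were higher.

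**Figure D4:**
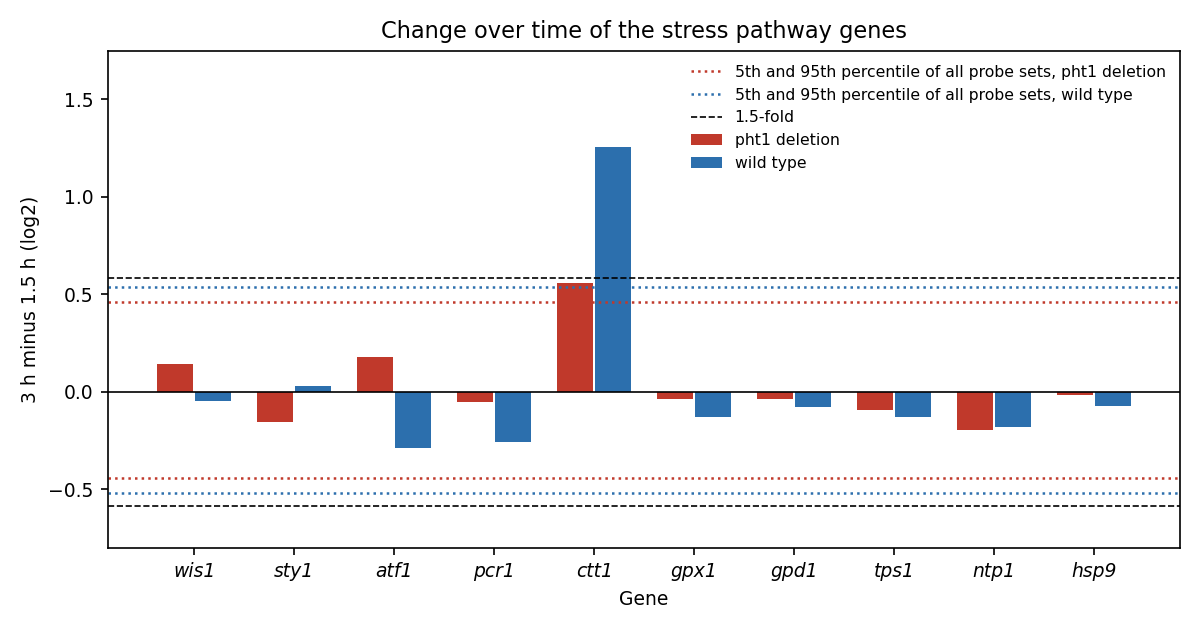
Difference between 3 h and 1.5 h (vertical axis, log2) of each stress pathway gene in the pht1 deletion (red bars) and in wild type (blue bars), each from 1 array minus 1 array. Dashed lines mark 1.5-fold and dotted lines the 5th and 95th percentiles of all probe sets above the floor. The bars of ctt1 (0.56 in the deletion and 1.26 in wild type) exceed all others, and atf1 points up in the deletion (0.18) and down in wild type (-0.29).

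The genes with profiles most like atf1 and ctt1 were found by the Euclidean distance between log2 profiles over the 4 arrays, each centred on its own mean, among 2322 named probe sets that passed the floor on 2 or more arrays. Nearest to atf1 were nep2 (distance 0.097), ani1 (0.161), mug65 (0.195), lsd90 (0.195) and trm10 (0.221). The nep2 probe set read 10.56 in the deletion and 10.24 in wild type at 1.5 h, and 10.67 in the deletion and 10.02 in wild type at 3 h. Nearest to ctt1 were the S-phase cyclin gene cig2 (0.254), rgs1 (0.256), which encodes a regulator of pheromone signalling, gpi13 (0.297), dli1 (0.300) and the cohesin loader gene mis4 (0.302). The rgs1 probe set read 13.90 in the deletion and 12.93 in wild type at 1.5 h, and 14.14 in the deletion and 14.02 in wild type at 3 h. With 4 arrays, a near profile is a description only.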

How the data were processed

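The authors deposited log2 values of 4 arrays, summarised per probe set by RMA, per the submitters' processing notes. Because RMA gives all arrays a like distribution, a difference in total mRNA between cultures is not seen. The RMA version and the set of arrays it was run on are not stated in the sources used. Probe sets were named through the platform annotation and updated by gene identifier to RefSeq symbols (assembly ASM294v3, names and gene order alone): 2917 had 1 symbol, 20 several and 2062 were unnamed here. The annotation of sod2 is an older name of another gene and was not used. Array medians lay between 11.23 and 11.27 and floors between 10.08 and 10.13.

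The members and gene lists were chosen with earlier results of these data known. Named genes are all members, pht1 and ura4, the genes past 1.5-fold in each other stress list (up to 2 each way, or its highest and lowest), those called by the additive fit, and the 5 nearest profiles of atf1 and ctt1. The mating, meiosis and vegetative lists are given by counts and mean levels or medians. The pyp1, pyp2, atf21, nep2 and rgs1 values and the bound of 8.37 were added after values were seen.

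The additive fit used limma 3.58.1 in R 4.3.3 with variances following intensity, and its steps were tested on simulated data. Alternatives covered scaling, floor, fold, probe set choice, variance model and features tested. Tables and figures were made in Python 3.11.15 with pandas 2.3.3, matplotlib 3.10.9 and, for lowess, statsmodels 0.14.6. The number of arrays limits the precision.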

Additional observations from a re-analysis of the deposited data

Results flagged for a closer look

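Among the stress pathway genes, 3 had single-array differences of opposite sign under the same contrast, and in each case the difference between the contrasts was not tested, since no group has a replicate. The time difference of atf1 was 0.18 in the deletion and -0.29 in wild type, so its genotype difference was larger by 0.47 at 3 h than at 1.5 h. The time difference of wis1 was 0.14 in the deletion and -0.046 in wild type. Put the other way, its genotype difference was 0.11 at 3 h and -0.080 at 1.5 h, and either comparison gives 0.19. The time difference of sty1 was -0.15 in the deletion and 0.031 in wild type, a difference of -0.18. Over 3851 probe sets, such a difference between contrasts had a spread of 0.18 (scaled median absolute deviation). Those of wis1, sty1 and atf1 lay at its 82.8, 16.9 and 97.1 percentiles.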

How the results depend on the processing

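Of 362 recomputed values for the 10 stress pathway genes, 359 kept their direction and side of the threshold or moved by less than the 0.13 spread. Part of these could not differ. Each gene had 1 probe set, so averaging probe sets changed nothing, and all 10 lay above the floor, so its removal changed no count. A small move could also change a sign, as for hsp9 over time in the deletion (-0.015, and 0.019 after median centring). Of the 20 genotype differences, 19 were above 0 under median centring, quantile normalization and removal of the intensity trend alike, and none moved by more than 0.045. At a 2-fold threshold, 0 genes were called at 1.5 h and 0 at 3 h. With arrays centred on the median, 1 gene (ctt1) passed 1.5-fold over time in the deletion, against 0 as reported. No stress pathway gene was called for genotype by limma under any setting, with adjusted p from 0.07 upwards. For atf1 it ranged from 0.0855 to 0.129 and for ctt1 from 0.158 to 0.282. The number of probe sets called by limma depended more on the settings. For genotype it was 186 as reported, 71 with the array median as floor and 46 with named genes alone, an alternative added after seeing the data. For time it was 62 as reported, 110 with robust variances, 123 after quantile normalization, and 0 without the intensity trend, without a floor, with the median floor or with named genes alone. The cause was not tested. No paired analysis was possible because the labels give no replicate numbers and each group holds 1 array. Leaving out an array would leave the additive fit no residual degree of freedom.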

Other observations

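Neighbouring genes were compared with the stress pathway genes, an observation added after values were seen. Within 2 protein-coding genes on each side, 17 neighbours of 7 of the 10 genes were measured. Of 15 above the floor at 1.5 h, 2 reached 1.5-fold, both lower in the deletion: aca1 beside pcr1, at -0.83, and ofd2 near hsp9, at -0.68. Of 12 above the floor at 3 h, 0 did. Among all probe sets above the floor, 5.31% were at least 1.5-fold lower and 4.69% higher at 1.5 h. At 3 h these shares were 3.96% and 3.09%. Counts this small do not set the neighbours apart from the array. Next to atf1, the gene isp4 was at 0.14 at 1.5 h and 0.029 at 3 h, and fic1 at -0.13 at 1.5 h, whereas atf1 was at 0.31 and 0.78. For sty1, ctt1 and tps1 no neighbour within this distance was measured here under a single symbol.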
